A study of Mus musculus with 6 samples.

Results

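Mast cells, basophils and eosinophils are granulocytes of allergic and antiparasite responses, and the 10 genes described here encode proteins that mark them: Cpa3, Cma1, Fcer1a, Ms4a2, Hdc, Mcpt8, Prss34, Prg2, Epx and Siglecf. The genes were taken by symbol from a list that was drawn up with earlier results of these data known, and all 10 were found among the 54532 genes of the deposited files. The rule itself uses no measured value. RNA was measured in 6 libraries of LSK cells from mouse bone marrow, a sort gate (no lineage markers, with Sca-1 and c-Kit) that enriches for haematopoietic stem cells and early progenitors. All 6 libraries carried the genotype Phf6fl-R274X/Y, a floxed R274X allele of the X-linked gene Phf6 in males. In 3 of them the allele was present without Cre (floxed 1 to 3), and in 3 it was combined with Vav1-Cre, a Cre driven by a promoter active throughout blood cells (R274X 1 to 3). Age is not given in the labels used here, and nothing in the labels ties each library to its own mouse. The p-values therefore reflect variation among these 6 libraries only, part of which could be technical. Cre was present in every R274X library and in no floxed library, so the effects of Cre and of the allele cannot be told apart.

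The 3 cell types arise in the marrow from progenitors that express GATA factors. Mast cells and basophils display IgE on the receptor FcεRI, whose ligand-binding alpha chain is encoded by Fcer1a and whose signal-amplifying beta chain is encoded by Ms4a2. When the receptor is crosslinked, they release histamine, made by the decarboxylase Hdc, and granule proteases, which include Cpa3 and Cma1 in mast cells and Mcpt8 and Prss34 in basophils. Eosinophils store the cationic major basic protein (Prg2) and eosinophil peroxidase (Epx), respond to interleukin-5 and carry the inhibitory lectin Siglec-F (Siglecf). Transcripts of several of these genes, Cpa3 and Hdc among them, are also known in immature progenitors.

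Upstream sequences are shown for 4 members, the mast cell and basophil genes Cpa3, Ms4a2 and Prss34 and the eosinophil gene Siglecf, because the GATA factor gene Gata2 differed between the groups. Each is the 250 bases before the RefSeq start site, read 5′ to 3′ on the gene's strand (GRCm38.p6), at chr3:20242182-20242431 (minus strand), chr19:11623720-11623969 (minus), chr17:25298144-25298393 (plus) and chr7:43351091-43351340 (plus). Capitals mark the word AGATAA or AGATAG, or the word TGATAA or TGATAG, on either strand.
Cpa3: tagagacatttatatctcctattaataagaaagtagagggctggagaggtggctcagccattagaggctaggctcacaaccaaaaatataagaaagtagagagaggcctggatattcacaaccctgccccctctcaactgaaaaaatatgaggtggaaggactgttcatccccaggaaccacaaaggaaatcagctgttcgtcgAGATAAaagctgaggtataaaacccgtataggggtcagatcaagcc
Ms4a2: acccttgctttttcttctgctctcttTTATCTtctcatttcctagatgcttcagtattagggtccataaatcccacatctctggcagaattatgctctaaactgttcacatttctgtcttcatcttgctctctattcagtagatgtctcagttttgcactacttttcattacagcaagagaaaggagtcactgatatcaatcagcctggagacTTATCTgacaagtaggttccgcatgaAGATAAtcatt
Prss34: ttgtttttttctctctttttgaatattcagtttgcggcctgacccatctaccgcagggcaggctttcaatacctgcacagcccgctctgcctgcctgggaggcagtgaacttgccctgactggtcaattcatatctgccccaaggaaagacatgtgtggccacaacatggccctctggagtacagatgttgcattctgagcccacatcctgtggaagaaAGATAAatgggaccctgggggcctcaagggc
Siglecf: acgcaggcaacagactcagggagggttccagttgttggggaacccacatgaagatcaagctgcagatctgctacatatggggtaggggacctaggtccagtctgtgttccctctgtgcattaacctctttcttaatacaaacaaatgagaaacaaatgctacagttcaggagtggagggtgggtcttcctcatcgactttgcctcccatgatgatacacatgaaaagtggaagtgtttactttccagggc

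Upstream windows were found for 9 members, and Prg2 had none in the table. Such a word occurred in 6 of these 9 windows, against 26.5% of all 32851 windows of the same length. In windows of protein-coding genes the share was 23.1%. Ms4a2 held 3 words and Cpa3, Fcer1a, Hdc, Prss34 and Cma1 held 1 each. The word of Cpa3 lay 46 to 41 bases before the start and that of Prss34 31 to 26 bases before it. The windows of Mcpt8, Epx and Siglecf held none, although 2 words lay in the 50 bases after the start of Siglecf. Of the other words searched, the E-box word CANNTG occurred in 8 of the 9 windows, against 66.2% of all windows. The C/EBP word TTGCNNAA occurred in 1, against 9.56%. A match describes letters and not binding, and a link of these words to the Gata2 difference was not tested.

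Total counts ran from 15406314 to 18106065 per library. Phf6 fell 3.51-fold in the libraries labelled with Cre (adjusted p = 6.67e-06), from 31.6 ± 1.98 to 9.01 ± 1.08 CPM (SD, n = 3 each). CPM is a gene's count relative to the total of its library, after TMM scaling, which sets the libraries to a common level. All 12 stem and progenitor gate markers were detected in every library, with a summed level of 2035 to 2164 CPM in floxed and 1431 to 1659 CPM in R274X libraries. Of these markers 11 fell and 1 rose, against 7.89% and 10.1% of all tested genes. The one that rose was Ly6a, the gene of the Sca-1 antigen used in the sort (142 ± 5.07 to 247 ± 15.6 CPM, 1.74-fold, adjusted p = 5.83e-05). Several other cell types differed along with the groups: summed macrophage markers ran from 281 to 574 CPM in floxed and from 1252 to 2632 CPM in R274X libraries, and immunoglobulin transcripts took 0.29% to 1.18% and 4.45% to 7.95% of counts. Summed markers of neutrophils overlapped, at 19114 to 31885 CPM and 14383 to 37473 CPM.

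Of the 10 genes, 1 fell and none rose in the R274X libraries at an adjusted p under 0.05 (edgeR quasi-likelihood test, Benjamini-Hochberg over 14608 genes). The one that fell was Siglecf. In the same fit 17.9% of all genes were called, 10.1% higher and 7.89% lower. Thus 1 call in 10 is no larger a share than the 17.9% called in either direction. As a fall, 1 in 10 is close to the 7.89% called lower. The split over all genes, 1469 higher and 1152 lower, became 1215 and 1430 with upper-quartile scaling. At an unadjusted p under 0.05 there was 1 higher gene, Prg2, which also passed the adjusted threshold in DESeq2 and limma-voom, each of which called 1 member higher. All 10 genes passed the filter on low counts. Their median log2 fold change was 0.13, with 6 positive and 4 negative, against -0.02 over all genes. For 2 of the 10, Siglecf (lower) and Prg2 (higher), the 2 groups were fully separated, against 37.2% of all genes.

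**Figure D1:**
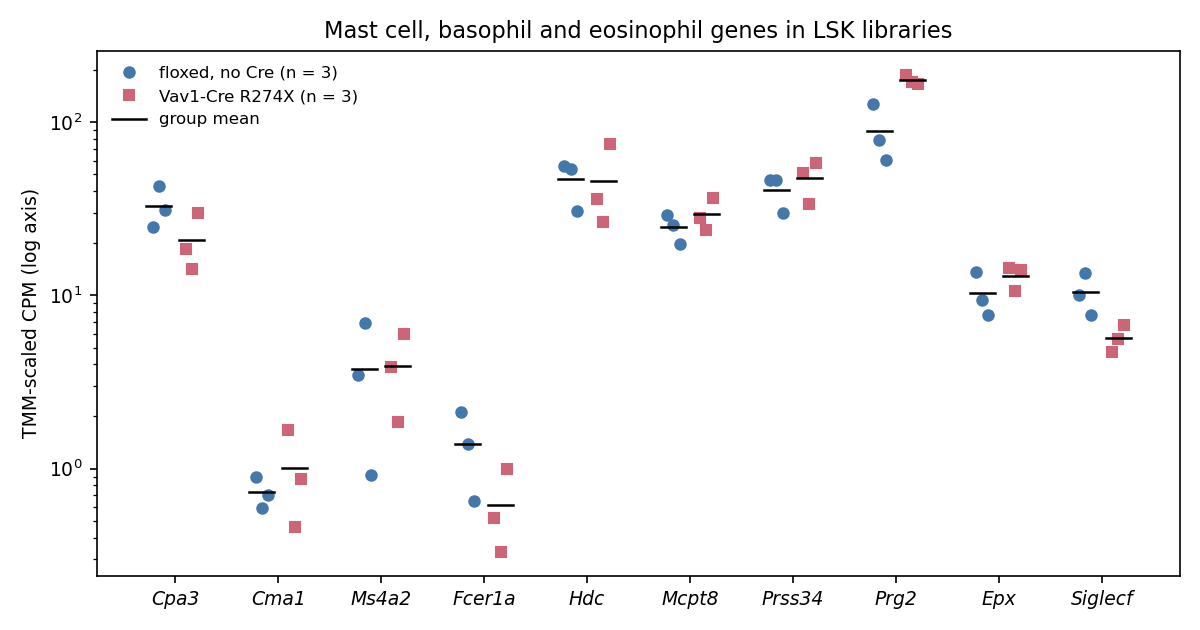
TMM-scaled CPM of the 10 genes (log axis) in each of 3 floxed (circles) and 3 R274X libraries (squares), with bars at the group means. Prg2 is the member with the highest level, and Prg2 and Siglecf are the members whose groups do not overlap.

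Levels per length differed widely among the members. On the deposited FPKM scale, which divides by gene length and by a library scale that equals the median-ratio size factor and not the total count, Prg2 stood first in floxed libraries at 105 ± 41.3, followed by Prss34 (33.2 ± 7.64), Mcpt8 (24.6 ± 4.47), Cpa3 (21.5 ± 5.8), Hdc (7.24 ± 2.14), Siglecf (3.71 ± 1.01), Epx (3.71 ± 1.11), Fcer1a (1.38 ± 0.73), Ms4a2 (1.33 ± 1.05) and Cma1 (0.664 ± 0.145; SD, n = 3). Neighbours in this order overlapped between libraries, except that every library had Prg2 above all values of Prss34, Cpa3 above those of Hdc, Hdc above those of Siglecf and Epx above those of Fcer1a. In the R274X libraries the order was Prg2 (208 ± 13.4), Prss34 (39.0 ± 10.1), Mcpt8 (29.4 ± 6.61), Cpa3 (13.7 ± 5.36), Hdc (7.18 ± 4.04), Epx (4.73 ± 0.757), Siglecf (2.04 ± 0.369), Ms4a2 (1.38 ± 0.729), Cma1 (0.919 ± 0.566) and Fcer1a (0.617 ± 0.348; SD, n = 3). There the neighbours that did not overlap were Prg2 and Prss34, Mcpt8 and Cpa3, and Epx and Siglecf. Epx and Siglecf, which overlapped in the floxed libraries, were apart in the R274X libraries.

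Among the mast cell granule genes, Cpa3 was much more abundant than Cma1. Cpa3 encodes carboxypeptidase A3, which trims peptides in mast cell granules (ENSMUSG00000001865, chromosome 3, 20215620 to 20242181, GRCm38). It measured 24.8, 42.7 and 31.1 CPM in floxed 1 to 3 and 18.4, 14.2 and 29.8 CPM in R274X 1 to 3. The R274X values were low in 2 libraries, and R274X 3 lay among the floxed values. The log2 fold change was -0.66 (SE 0.366, adjusted p = 0.299). Without R274X 3 it was -1.01 with an adjusted p of 0.0591.

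Cma1, the chymase of connective tissue mast cells (ENSMUSG00000022225, chromosome 14, 55941451 to 55944675), was near the limit of this depth. Its counts were 17, 11 and 13 in floxed and 26, 7 and 13 in R274X libraries, or 0.463 to 1.68 CPM over all 6. Counting error alone gave R274X 1 a 95% Poisson interval of 1.10 to 2.46 CPM and R274X 2 one of 0.186 to 0.954 CPM, so these replicates differed by more than counting error. The log2 fold change was 0.46 (SE 0.515, adjusted p = 0.579) and turned to -0.13 without R274X 1.

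The other defining mast cell proteases were at 0 or low, with Tpsb2 and Mcpt4 in some libraries within the range of Cma1. Mcpt4, a chymase, had 0, 0 and 15 counts in floxed and 3, 6 and 8 in R274X libraries. Tpsb2, a tryptase, had 1, 3 and 10 against 23, 15 and 4. Tpsab1 and Mcpt2 were at 0 in all floxed libraries and reached at most 5 and 3 counts in an R274X library, and the mast cell receptor gene Mrgprb1 was at 0 in all 6. A count of 0 allows up to 3 counts, or 0.166 to 0.195 CPM, per library, and intervals and floors cover counting error only. Summed over 9 mast cell markers, the level was 31.4 to 51.7 CPM in floxed and 18.7 to 38.5 CPM in R274X libraries, most of it Cpa3. In bulk RNA, fewer cells of a type and less RNA per cell cannot be told apart.

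The 2 chains of the IgE receptor varied strongly between replicates. Fcer1a (ENSMUSG00000005339, chromosome 1, 173221284 to 173227214) measured 2.12, 1.39 and 0.646 CPM in floxed and 0.517, 0.331 and 1.00 CPM in R274X libraries. R274X 3 lay above floxed 3, so the groups overlapped. The log2 fold change of -1.16 was the largest in size among the 10 members, but its SE was 0.545 and the adjusted p 0.161. These values rest on 40, 26 and 12 against 8, 5 and 15 counts. Ms4a2 (ENSMUSG00000024680, chromosome 19, 11615523 to 11623719) measured 3.49, 6.91 and 0.915 CPM in floxed and 3.88, 1.85 and 5.95 CPM in R274X libraries. Its floxed values spanned a 7.56-fold range, the widest of any member, and its log2 fold change of 0.04 (SE 0.82, adjusted p = 0.979) ran from -0.42 to 0.80 as single libraries were left out.

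Hdc, the enzyme of histamine synthesis (ENSMUSG00000027360, chromosome 2, 126593667 to 126619299), had group means that differed by less than the spread between replicates. It measured 56.1, 53.4 and 30.7 CPM in floxed and 36.2, 26.5 and 75.2 CPM in R274X libraries. R274X 3 was the highest and R274X 2 the lowest of all 6. The log2 fold change was -0.02 (SE 0.514, adjusted p = 0.982), and it ran from -0.57 without R274X 3 to 0.25 without R274X 2.

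The basophil proteases Mcpt8 and Prss34 were abundant in every library, and neither passed the test. Mcpt8 (ENSMUSG00000022157, chromosome 14, 56082166 to 56085273) measured 29.0, 25.5 and 19.9 CPM in floxed and 28.1, 23.7 and 36.6 CPM in R274X libraries. Prss34, a tryptase-like serine protease (ENSMUSG00000056399, chromosome 17, 25298394 to 25300165), measured 46.2, 46.3 and 29.7 CPM against 50.9, 33.9 and 57.9 CPM. In both genes floxed 3 and R274X 2 were low, R274X 3 was highest, and the groups overlapped. The log2 fold changes were 0.25 (SE 0.186, adjusted p = 0.405) and 0.22 (SE 0.282, adjusted p = 0.646). The ratio of Prss34 to Mcpt8 FPKM was 1.34 ± 0.134 in floxed and 1.32 ± 0.157 in R274X libraries (SD, n = 3 each), a difference within the spread. Cd200r3, a basophil receptor, was low in both groups (0.747 ± 0.226 and 1.01 ± 0.355 CPM, adjusted p = 0.56).

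Set against Prss34, Cpa3 was lower in every R274X library than in any floxed library. The ratio of Cpa3 to Prss34 FPKM was 0.431, 0.739 and 0.839 in floxed and 0.290, 0.334 and 0.413 in R274X libraries. The ratio of Ms4a2 to Fcer1a was 0.585, 1.76 and 0.503 against 2.66, 1.99 and 2.11, also without overlap but from few counts of Fcer1a. These ratios were chosen after the values were seen and carry no test.

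The 3 eosinophil members went different ways. Prg2, the major basic protein of eosinophil granules (ENSMUSG00000027073, chromosome 2, 84980461 to 84983632), measured 128, 78.6 and 60.1 CPM in floxed and 188, 171 and 165 CPM in R274X libraries. Every R274X library lay above every floxed library, and the R274X values spanned only 1.13-fold against 2.12-fold in the floxed group. The log2 fold change was 0.97 (1.97-fold, SE 0.315, adjusted p = 0.117). The adjusted p was 0.0217 in DESeq2, 0.0171 in limma-voom, 0.0248 with the robust option off and 0.000219 without floxed 1, and between 0.0531 and 0.29 in the other alternatives. Prg2 has short transcripts (838 bases of merged exons), and protein-coding genes under 1000 bases had a median log2 fold change of 0.24 over 313 genes, against -0.03 over 12154 longer ones. The part of length in the Prg2 difference was not tested.

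Epx, the eosinophil peroxidase (ENSMUSG00000052234, chromosome 11, 87864000 to 87875536), differed less. It measured 13.7, 9.38 and 7.70 CPM in floxed and 14.3, 10.6 and 14.0 CPM in R274X libraries. The groups overlapped, and the log2 fold change was 0.34 (SE 0.21, adjusted p = 0.296).

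Siglecf, an inhibitory receptor that binds sialic acids on eosinophils (ENSMUSG00000039013, chromosome 7, 43351341 to 43359531), fell 1.83-fold. It measured 10.1, 13.5 and 7.75 CPM in floxed and 4.72, 5.62 and 6.76 CPM in R274X libraries, from 191, 252 and 144 against 73, 85 and 101 counts. The lowest floxed value, in floxed 3, lay close above the highest R274X value, in R274X 3. Siglecf ordered the libraries of both groups as the summed stem and progenitor gate markers did, of which 11 of 12 fell. In floxed 1 and floxed 3 these sums were 2040.4 and 2035 CPM, so their order there is close to a tie. How many of all genes share that order was not counted, and the part of gate cells in the Siglecf fall was not tested. The log2 fold change of Siglecf was -0.88 (SE 0.222, adjusted p = 0.0179). The call was lost without floxed 1 (adjusted p = 0.0507), floxed 2 (0.103), R274X 1 (0.0883) or R274X 2 (0.0679), in limma-voom (0.0539) and in limma on log2 FPKM (0.0667 to 0.135), while the log2 fold change kept to between -1.06 and -0.66 whichever library was left out.

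Inside single libraries the eosinophil members therefore stood in different proportions. The ratio of Prg2 to Epx FPKM was 30.5, 27.4 and 25.5 in floxed and 42.9, 52.7 and 38.4 in R274X libraries. The ratio of Siglecf to Epx was 0.726, 1.41 and 0.988 against 0.324, 0.521 and 0.472. Neither ratio overlapped between the groups. Ratios of this kind do not depend on the scaling between libraries, and they were chosen after the values were seen. Prg2 and Siglecf were already known not to overlap between the groups, so these ratios carry no separate test.

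**Figure D2:**
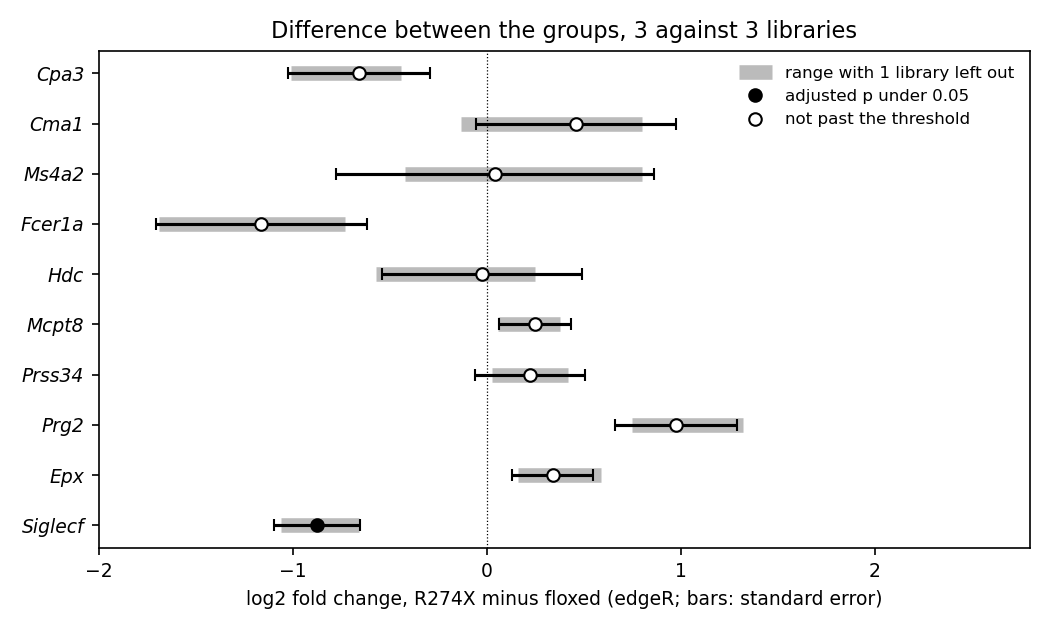
Log2 fold change, R274X minus floxed, of the 10 genes from edgeR (points; error bars are standard errors) with the range over the 6 fits that leave out 1 library (grey). Siglecf is the only filled point, and Cma1, Ms4a2 and Hdc have grey ranges that cross 0.

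Other eosinophil genes had mostly positive differences (9 of the 11 tested). Of these, 3 rose, none fell (0 at an unadjusted p under 0.05, and 0 in DESeq2 and limma-voom) and 8 did not pass, with 8 whose groups did not overlap, all of them higher in R274X, and a median log2 fold change of 0.96 against -0.02 over all genes. Over all genes 10.1% rose, and the groups of 37.2% did not overlap in either direction. Il5ra, the interleukin-5 receptor alpha chain, rose 3.08-fold from 1.59, 1.18 and 0.807 CPM to 3.36, 4.03 and 3.68 CPM (adjusted p = 0.00484), and it passed in all 16 alternatives that could test it. Alox15, a lipoxygenase of eosinophils and macrophages, rose 2.52-fold from 1.95 ± 0.966 to 4.94 ± 0.1 CPM (adjusted p = 0.0143), and did not pass without floxed 2 (0.072) or R274X 1 (0.0541). Cd24a, a surface glycoprotein of many blood cells, rose 1.32-fold (adjusted p = 0.00828).

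Some other eosinophil granule genes had differences similar to that of Prg2 that did not pass, whereas Epx differed by 0.34 with overlapping groups. Prg3, a major basic protein homologue, differed by 0.95 on the log2 scale (adjusted p = 0.252), and the eosinophil-associated ribonucleases Ear1, Ear2 and Ear6 had 1.05 (0.326), 0.96 (0.0674) and 0.95 (0.124). Prg3, Ear2 and Ear6 did not overlap between the groups. Like Prg2, Prg3 (949 bases of merged exons), Ear1 (730), Ear2 (719) and Ear6 (945) are short, and Epx (2737) is not. The part of length in these differences was not tested. The Ear genes are closely similar copies of each other, so the division of reads among them is uncertain. Ear2 passed in DESeq2 (adjusted p = 6e-05) and limma-voom (0.0185), and Ear6 in DESeq2 (0.0219). Without floxed 1, all 4 passed, with adjusted p of 0.0417 for Prg3, 0.0174 for Ear1, 0.00174 for Ear2 and 0.0036 for Ear6.

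Ccr3, the eotaxin receptor, measured 8.31, 3.11 and 12.9 CPM in floxed and 28.1, 23.2 and 15.3 CPM in R274X libraries (log2 fold change 1.46, adjusted p = 0.181), and passed in limma-voom (0.0353) and with the robust option off (0.0498). Adgre4, an adhesion receptor of macrophages and eosinophils, differed by 1.62 (adjusted p = 0.0521) and passed in DESeq2 (2.83e-06) and limma-voom (0.0188). Both genes ordered the libraries exactly as the summed macrophage markers and the summed B cell markers did. Floxed 3 lay above floxed 1 and floxed 2, and R274X 1 above R274X 2 and R274X 3. This order was found in 5.69% of all tested genes and in none of the 10 members. All 10 macrophage markers were higher in the R274X libraries without overlap (6 of them called). So were all 10 B cell markers (6 called). Among all tested genes 37.2% did not overlap in either direction and 10.1% were called higher. The part of either cell type in the differences of Ccr3 and Adgre4 was not tested. Cebpe, a transcription factor of neutrophil and eosinophil granules, measured 85.1 ± 18.1 and 71.5 ± 37.5 CPM (adjusted p = 0.758).

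**Figure D3:**
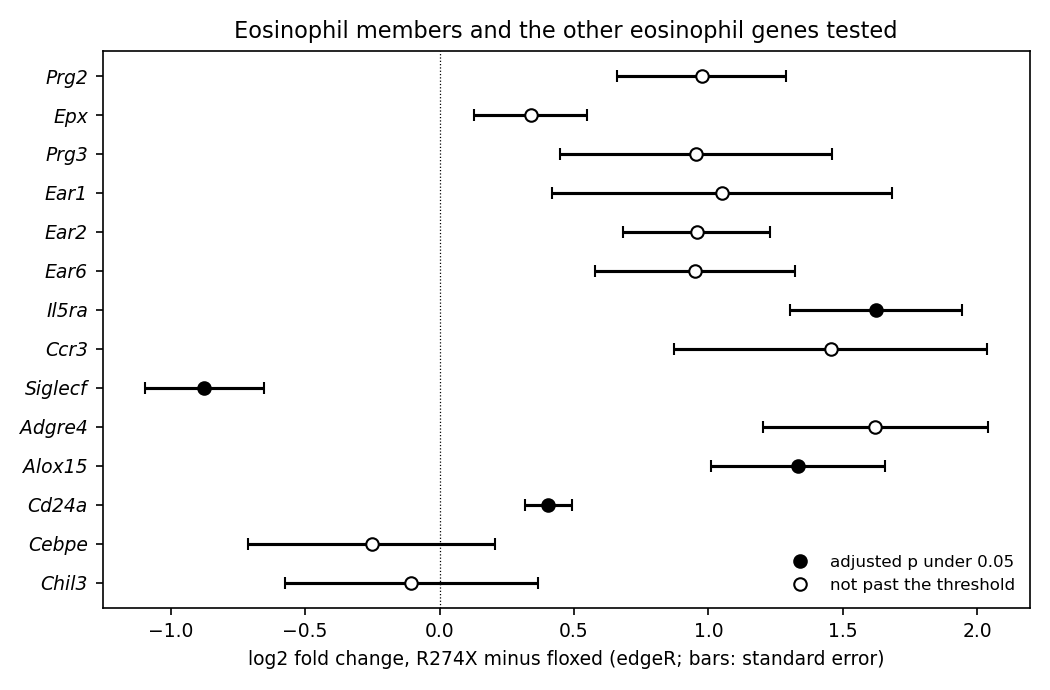
Log2 fold change, R274X minus floxed, of the eosinophil members Prg2, Epx and Siglecf and of the 11 other eosinophil genes tested (edgeR; bars are standard errors). Il5ra, Alox15 and Cd24a lie to the right of 0 and Siglecf to the left among the filled points, which passed an adjusted p of 0.05.

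Mast cell genes other than the members had mostly negative differences (7 of the 8 tested), and 1 passed. Of 18 listed, 8 could be tested: 1 fell (7.89% of all genes did), none rose (10.1%) and 7 did not pass. The median of the 8 was -0.43. Hpgds was the 1 gene higher at an unadjusted p under 0.05, with 1 called higher by DESeq2 and 0 by limma-voom. Slc18a2, the vesicular monoamine transporter that loads histamine into granules, fell 2.44-fold from 25.0, 30.9 and 27.7 CPM to 9.70, 11.4 and 13.1 CPM (adjusted p = 0.000139) and passed in all 17 alternatives. Hpgds, the hematopoietic prostaglandin D synthase, differed by 1.02 on the log2 scale (adjusted p = 0.121). It shared the library order of the summed macrophage and B cell markers. It passed in DESeq2 (0.00905), without a count filter (1.46e-05) and without R274X 3 (0.0102). Gzmb, a granzyme (-0.12, adjusted p = 0.886), Ctsg, a granule protease also of neutrophils (-0.92, 0.251), Cd63, a granule membrane protein (-0.43, 0.175), Mlph (-1.47, 0.177) and Il1rl1, the receptor of interleukin-33 (-0.43, 0.401), did not pass. Cd63 passed in DESeq2 (0.016), without a count filter (0.00145) and without R274X 3 (0.0452), and Mlph without floxed 3 (0.0265).

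Of 11 tested basophil genes other than the members, 2 fell (7.89% of all genes did), none rose (10.1%) and 9 did not pass (median -0.12). Cd69 was the 1 gene higher at an unadjusted p under 0.05, with 1 called higher by DESeq2 and 0 by limma-voom. Il18r1, an interleukin-18 receptor chain, fell 1.49-fold (9.41 ± 0.323 to 6.32 ± 0.727 CPM, adjusted p = 0.0338), and the call was lost whichever library was left out (adjusted p up to 0.114). The Il18r1 call was also lost in DESeq2 (0.0508), and it held in 9 of the 17 alternatives. Gata2, a transcription factor of stem cells and of mast cell and basophil formation, fell 2.01-fold from 89.7, 123 and 80.4 CPM to 46.0, 40.3 and 59.3 CPM (adjusted p = 0.0399). It lost the call without floxed 1 (0.0962), R274X 1 (0.163) or R274X 2 (0.0908). Itga2b, an integrin chain of megakaryocytes and early progenitors (-1.11, adjusted p = 0.123), and Cd69, an activation marker (0.42, 0.0902), did not pass. Itga2b passed in DESeq2 (0.0293), limma-voom (0.0245), with the robust option off (0.0271) and without R274X 3 (0.0495), and Cd69 in DESeq2 (0.00661), without a count filter (2.55e-05) and without floxed 3 (0.00327).

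Among 24 transcription factors of these lineages, 7 fell (7.89% of all genes did), 3 rose (10.1%) and 14 did not pass (median -0.15). Besides Gata2, the falls included Tal1 (1.89-fold, adjusted p = 0.00068), its partner Lmo2 (1.45-fold, 0.000833) and Cebpa, a granulocyte factor (1.46-fold, 0.00213). Irf8, a factor of monocytes and dendritic cells, rose 1.54-fold (0.00349). Gata1, which is required for eosinophils, measured 14.5, 25.7 and 11.6 CPM in floxed and 10.2, 9.39 and 10.5 CPM in R274X libraries. All R274X values of Gata1 were below all floxed values, and it did not pass (-0.78, adjusted p = 0.122). It passed in DESeq2 (0.0152), without a count filter (9.72e-06) and without floxed 3 (0.0228), and its log2 fold change was -0.39 without floxed 2. Mitf, the mast cell factor, was low in both groups (3.39 ± 0.552 and 2.68 ± 0.438 CPM, adjusted p = 0.42).

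Of 14 tested cytokine and growth factor receptors, 4 fell (7.89% of all genes did), 2 rose (10.1%) and 8 did not pass (median -0.12). Kit, the stem cell factor receptor on which mast cells and the gate depend, fell 1.64-fold (158 ± 12.8 to 96.7 ± 14.8 CPM, adjusted p = 0.00159). Csf2rb, the beta chain shared by the receptors of interleukin-3, interleukin-5 and GM-CSF, fell 1.27-fold (50.8 ± 4.25 to 39.9 ± 4.3 CPM, adjusted p = 0.0295). Its call was lost without floxed 1 (0.0721), floxed 2 (0.126), R274X 1 (0.113) or R274X 2 (0.127), and in limma on log2 FPKM (0.0876 to 0.152). Il4ra fell 1.34-fold (0.00812), while Cxcr4 and Il5ra rose. Il3ra (-0.09, adjusted p = 0.518) and Csf2rb2 (-0.17, 0.621) did not pass. The RNAs of the 2 interleukin-5 receptor chains differed in opposite directions, Il5ra higher and the shared chain Csf2rb lower. Whether the same cells carried both was not tested.

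Of 18 tested signalling genes downstream of the IgE receptor, 2 rose, 1 fell and 15 did not pass (median -0.01), a share of calls near the 17.9% of all genes. The kinase Fyn rose by 0.59 on the log2 scale (adjusted p = 0.00127), the kinase Lyn 1.17-fold (0.045), and the adaptor Lat fell 1.42-fold (0.00288). Lyn lost the call whichever library was left out (adjusted p up to 0.179), in DESeq2 (0.0543) and in limma-voom (0.0534). It passed in 3 of the 17 alternatives. Fcer1g, the gamma chain that the IgE receptor shares with other Fc receptors and that macrophages express, measured 188, 129 and 132 CPM in floxed and 249, 185 and 239 CPM in R274X libraries (log2 fold change 0.58, adjusted p = 0.101). Fcer1g passed in DESeq2 (0.000379) and limma-voom (0.0381).

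Granule and lipid mediator genes gave 3 falls, 1 rise and 12 that did not pass among 16 tested (median -0.21). Besides Slc18a2, which is on this list too, Unc13d, a factor of granule release, fell 1.38-fold (adjusted p = 0.00507). Ndst2, which sulfates mast cell heparin, fell 1.27-fold (0.0415), a call lost without floxed 1, floxed 2, R274X 1 or R274X 2 (adjusted p up to 0.143). The Ndst2 call was also lost in DESeq2 (0.0764), and it held in 9 of the 17 alternatives. Ctsc, which activates granule proteases and is also expressed in macrophages, rose 2.21-fold (69.3 ± 6.12 to 153 ± 28.9 CPM, 0.00158). Srgn, the core protein of granule proteoglycans, differed by -0.22 on the log2 scale (adjusted p = 0.0565), and passed in DESeq2 (0.0214) and limma-voom (0.0489). Over the 7 lists together, 10 of 93 tested genes rose and 15 fell, against the background shares of 10.1% and 7.89%. The 15 falls became 8 without floxed 1, 9 without floxed 2, 8 without R274X 1, 8 without R274X 2 and 26 without R274X 3.

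Replicates of a group differed in a way that most members shared. Floxed 3 was the lowest of the floxed libraries for 8 of the 10 genes, all but Cpa3 and Cma1, against 36.4% of all tested genes. R274X 2 was the lowest of its group for 8 genes, all but Prg2 and Siglecf, against 29.7% of all tested genes, and R274X 3 was the highest for 7, against 33.2%. Summed neutrophil markers had the same order, with 31885, 24683 and 19114 CPM in floxed and 21816, 14383 and 37473 CPM in R274X libraries. Hdc, Mcpt8 and Fcer1a ordered all libraries of both groups as the neutrophil markers did, as 4.38% of all tested genes did. The summed basophil markers, which include Mcpt8 and Fcer1a, had this order too. Prss34 and Ms4a2 shared the order of the summed megakaryocyte and the summed T and NK cell markers, and Cma1 that of the erythroid markers. The floxed order of Prss34 rests on 46.3 against 46.2 CPM, close to a tie, and that of Cma1 on 11 against 13 counts. Most of the T and NK cell sum was Nkg7 (165 of 191 CPM in floxed 2, 75.0 of 132 in R274X 2). How many of all genes share these orders was not counted. The part of neutrophil or other cell content in the orders of these genes was not tested.

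**Figure D4:**
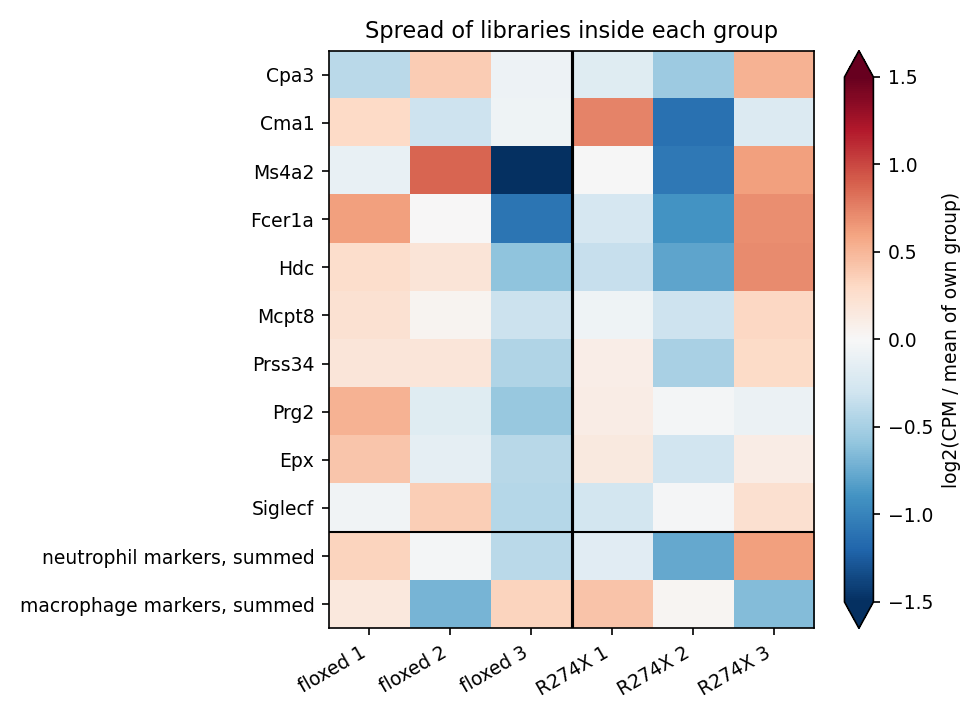
Each library's level relative to the mean of its own group, as log2 of the CPM ratio, for the 10 genes and for summed neutrophil and macrophage markers. Floxed 3 and R274X 2 are blue for most members, and the neutrophil row repeats the order of Hdc and Mcpt8 while the macrophage row does not.

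For the 3 members with the highest total counts, the genes whose log2 CPM followed them most closely over the 6 libraries were ranked by Pearson's correlation among 12464 protein-coding genes. Those nearest to Hdc were Hp (haptoglobin, r = 0.997), Itgb2l (0.994), Rap1gap2 (0.993), Clec5a (0.992) and Ceacam1 (0.990). Those nearest to Prg2 were Foxm1 (0.995), Alox15 (0.995), Gm9844 (0.992), Ptprf (0.990) and March2 (0.989), of which Alox15 is on the eosinophil list. Those nearest to Prss34 were S100a1 (0.991), Ccno (0.989), Mroh1 (0.978), Klra17 (0.974) and Ogfod1 (0.974). Mcpt8 ranked 50 for Prss34 (r = 0.929) and Epx ranked 580 for Prg2 (r = 0.854). Siglecf was placed far from Prg2 (r = -0.662). These correlations describe 6 libraries that share 2 groups and are the highest of many, so they carry no p.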

How the data were processed

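RNA-seq of LSK cells was analysed in 6 libraries (3 floxed, 3 R274X). RNA was extracted with TRIzol and libraries were made with an Illumina TruSeq kit, per the labels' protocols. The authors deposited, for each library, a count and an FPKM column for every Ensembl gene, per the file headers. The counts are whole numbers whose totals and size factors differ between libraries, and they were treated as raw, although no source states that they are unscaled. The submitters' processing notes name Bowtie and mm8. How reads were counted, with which annotation and whether by strand, is not given in the sources used. The deposited FPKM values fit exon lengths of GENCODE M21 (GRCm38) within 0.01% for most genes, and a library scale equal to the median-ratio size factor times the geometric mean of the totals. Symbols were matched for 54409 of 54532 IDs.

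Counts were TMM-scaled and tested with edgeR 4.0.16 (quasi-likelihood, robust, R 4.3.3), after edgeR's filter with a minimum count of 10, without covariates, with Benjamini-Hochberg adjustment over 14608 genes and a threshold of 0.05. FPKM served for levels and, with pseudocounts of 1 and 0.1 and a filter of 0.5, for limma 3.58.1. DESeq2 1.42.0, limma-voom, other scalings and filters, and each library left out were alternatives. A fit without immunoglobulin genes was added after the data were seen. Poisson intervals are at 95%. Depth limits precision mainly for Fcer1a and Cma1. The code was tested on simulated data. Genes named are the 10 members, Phf6, 28 fixed genes and up to 4 genes of smallest p from each of 7 lists. Mrgprb1, ratios and library orders were chosen after values were seen. The members and lists were chosen with earlier results of these data known.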

Additional observations from a re-analysis of the deposited data

How the results depend on the processing

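The number of members called higher was 0, and 1 in DESeq2, limma-voom and edgeR with the robust option off. The number called lower was 1, and 0 in limma-voom and in limma on log2(FPKM + 1), log2(FPKM + 0.1) and log2(FPKM + 1) without a filter. With single libraries left out, both counts ran from 0 to 1. Of the 93 genes of the other lists, 10 were higher and 15 lower. These became 17 and 23 without a count filter and 4 and 3 on log2(FPKM + 1) without a filter. With single libraries left out they ran from 8 to 13 and from 8 to 26. Leaving out immunoglobulin genes, chosen after seeing the data, gave 0 and 1 members and 11 and 15 other genes. Among the genes named in the report or drawn, some log2 fold changes changed sign with a library left out: Ms4a2 (-0.42 to 0.80, with -0.01 without floxed 1 and -0.39 without R274X 3), Hdc (-0.57 to 0.25, with 0.12 without floxed 1 or R274X 1 and 0.07 without floxed 2), Cma1 (-0.13 to 0.80), Cebpe (-0.75 to 0.03), Csf2rb2 (-0.34 to 0.03), Chil3 (-0.63 to 0.16) and Gzmb (-0.78 to 0.20, with 0.12 without R274X 1 and 0.13 without R274X 2). The cause was not tested. No paired analysis was possible because the labels tie no floxed library to an R274X library. The numbers 1 to 3 used here follow accession order within each group and only name the libraries. With 3 libraries a group, values of Fcer1a and Cma1 rest on few counts.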
